A study of Mus musculus with 6 samples.

Results

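The 10 genes described here encode the insulin-like growth factor (IGF) axis: the ligands *Igf1* and *Igf2*, the receptors *Igf1r* and *Igf2r*, the binding proteins *Igfbp2*, *Igfbp3*, *Igfbp4*, *Igfbp5* and *Igfbp7*, and the related *Igfbpl1*. They were taken by gene name from the 38553 genes of the expression table, and each name matched 1 gene. RNA-Seq was performed on craniofacial tissue dissected at E12.5, a stage of facial outgrowth before the palate closes. There were 3 control and 3 *Rbfox2* mutant samples, described in the paper as independent biological replicates. Control embryos were *Rbfox2* flox/flox, and mutants were Pax3Cre/+:*Rbfox2* flox/flox, so that every embryo of both groups carried the floxed alleles and only the mutants carried Cre. *Rbfox2* is an RNA-binding protein that regulates alternative splicing, and the comparison asked which transcripts change when it is deleted from the neural crest, the cells that form much of the facial skeleton. The Cre gene was knocked into *Pax3* and is also active in paraxial mesoderm and its somite derivatives, and deletion of *Rbfox2* cannot be told apart from the presence of the Pax3Cre allele in these groups. The tissue was processed whole, so that fewer cells of a type and less RNA per cell cannot be told apart.

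IGF ligands are secreted growth factors that signal through the receptor tyrosine kinase encoded by *Igf1r*, upstream of the PI3K-AKT and MAP kinase pathways, and promote growth and survival of embryonic tissue. The IGF2 receptor binds IGF2 and carries it to lysosomes for degradation, without kinase activity of its own. The IGF binding proteins hold the ligands in the extracellular space, prolong their half-life and limit or deliver them to the receptors. *Igf2* is imprinted and expressed from the paternal allele, and in mice *Igf2r* is expressed mainly from the maternal allele.

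Expression was given as FPKM, the number of sequenced fragments scaled to transcript length and library size, which places genes of different length on 1 scale. The level of *Rbfox2* itself was 58.4, 65.0 and 61.3 FPKM in the controls and 38.1, 36.3 and 34.3 FPKM in the mutants, with no overlap between the groups. The first replicate of each group stood apart from the other 4 samples. On the first principal component, which held 54.7% of the variance of the tested genes, control replicate 1 and mutant replicate 1 lay at -19.1 and -17.0, and the remaining samples between 7.55 and 11.0. Markers of cranial mesenchyme were present in every sample, with all 11 markers tested and a summed level of 446 to 554 FPKM. Markers of forebrain progenitors were detected at a similar summed level, 362 to 659 FPKM, and all 5 liver markers were under 1 FPKM. Transcripts of 4 Y-linked genes were detected at summed levels of 57.7 and 55.5 FPKM in mutant replicates 1 and 2 and at most 0.217 FPKM in the other samples. Y-linked expression was thus seen in mutants only, and embryo sex cannot be fully told apart from genotype.

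Rbfox proteins recognise the hexamer UGCAUG in RNA, and the sense strand of the longest coding transcript of each gene was searched for its DNA form, TGCATG, in the GENCODE M21 annotation of GRCm38. A site was found in 7 of the 10 transcripts (70.0%), against 55.7% of 9771 tested genes with a coding transcript. The transcripts of the IGF axis were also longer, with a median of 4276.5 nt against 3179 nt, and held 0.342 sites per kb against 0.281 over all tested genes. *Igf2r* held 5 sites, *Igf1r* 4, *Igf1*, *Igfbp4* and *Igfbpl1* 2 each, and *Igf2* and *Igfbp5* 1 each, whereas *Igfbp2*, *Igfbp3* and *Igfbp7* held 0. The sites of *Igf1r*, *Igf2r* and *Igfbp4* are left out here. Those of both ligands, of *Igfbp5* and of *Igfbpl1* are shown as examples, with the hexamer in capitals and 10 bases on either side.
Igf1 site 1: gagccgaaaaTGCATGgatgttgtag
Igf1 site 2: tgtttgtacaTGCATGtatttttttt
Igf2 site 1: ctgagcagttTGCATGgtttgagctc
Igfbp5 site 1: ctgtggctgcTGCATGacttgcgccc
Igfbpl1 site 1: gggatggtcgTGCATGcagctttttt
Igfbpl1 site 2: aacatcacctTGCATGaacagctcag
The *Igf1* windows lie on the plus strand at chr10:87931047-87931072 and chr10:87932713-87932738, both in the 3′ UTR. The *Igf2* window lies in the 3′ UTR on the minus strand at chr7:142652813-142652838. The *Igfbp5* window is in coding sequence on the minus strand at chr1:72873962-72873987. Both *Igfbpl1* windows are in the 3′ UTR on the minus strand, at chr4:45811175-45811200 and chr4:45810758-45810783. Introns were not searched, and a match describes the sequence only.

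Among the 10 genes, *Igf2* was the most highly expressed and *Igfbp7* the least. *Igf2*, the fetal growth factor at chr7:142650766-142666816, reached 689 ± 62.3 FPKM (mean ± SD of all 6 samples), above 98.8% of tested genes. *Igfbp4* followed at 307 ± 39.0 FPKM, then *Igfbp2* at 174 ± 21.0 FPKM and *Igfbp5* at 159 ± 31.8 FPKM. The level of *Igf2* was 2.0 to 2.68 times that of *Igfbp4* in the same sample, so the top of the order was the same in all 6 samples.

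The lower part of the order was closer together. *Igfbpl1* and *Igfbp3* had nearly the same mean, 49.5 ± 14.9 and 49.1 ± 10.1 FPKM. *Igf1* had 27.5 ± 4.06 FPKM, *Igf2r* 22.1 ± 5.32 FPKM, *Igf1r* 14.0 ± 2.70 FPKM and *Igfbp7* 9.77 ± 1.65 FPKM. Ranges over the samples overlapped in 5 of the 9 neighbouring pairs of this order, namely *Igfbp2* with *Igfbp5*, *Igfbpl1* with *Igfbp3*, *Igf1* with *Igf2r*, *Igf2r* with *Igf1r*, and *Igf1r* with *Igfbp7*. Within each sample, however, *Igf1* lay above *Igf2r* and *Igf2r* above *Igf1r* in 6 of 6 samples, with 1.3 to 1.90 times as much *Igf2r* as *Igf1r*. The plot of levels shows the 6 values of each gene.

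**Figure D1:**
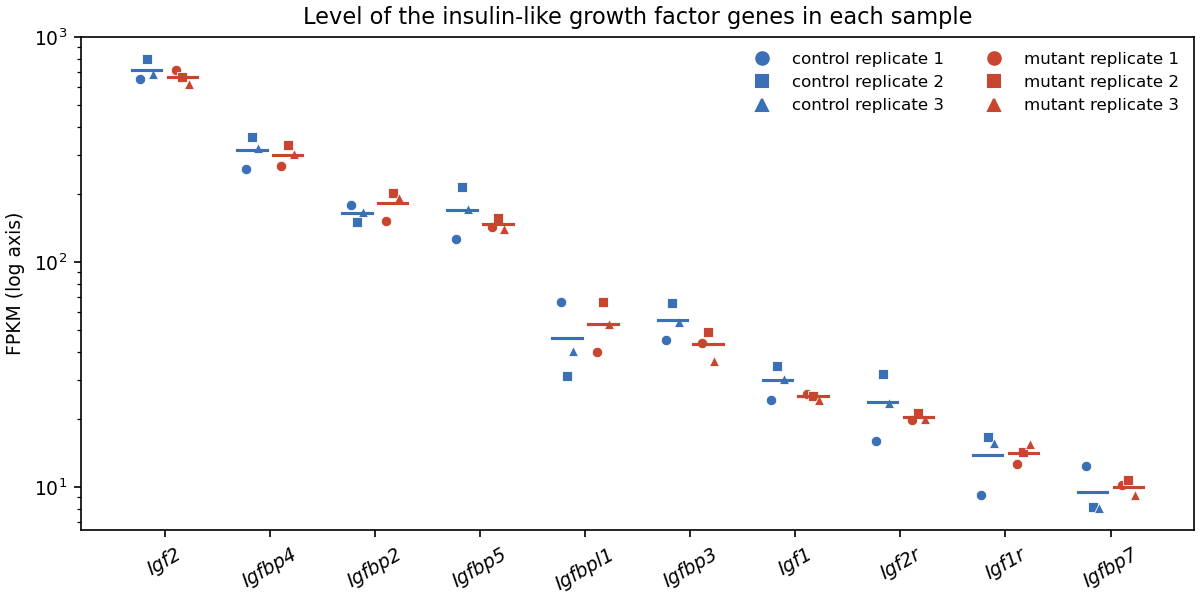
FPKM of the 10 genes on a log axis, 1 point per sample, with controls in blue, mutants in red, a symbol for each replicate number and a line at each group mean. *Igf2* lies at 620 to 798 FPKM and *Igfbp7* at 8.07 to 12.3 FPKM, and the points of the groups overlap for every gene.

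No gene of the IGF axis passed the test between mutants and controls when all 3 samples of each group were compared. The groups overlapped for all 10 genes, and log2 differences ranged from -0.34 for *Igfbp3* to 0.25 for *Igfbpl1*. In the limma fit across 10061 genes with Benjamini-Hochberg adjustment, 0 of 10 genes had an adjusted p under 0.05, as had 0% of all tested genes. The deleted gene *Rbfox2* itself had an adjusted p of 0.138 in this limma fit, so missing this threshold does not show that a gene was unchanged. At an unadjusted p under 0.05 the count was again 0 of 10, against 1.66% of all tested genes. Values of mutants and controls were fully separated in 0 of 10 genes, against 5.0% (503) of tested genes. The unadjusted count depended on single samples. Without control replicate 1 it was 6 of 10 (*Igf1*, *Igf2r*, *Igfbp3*, *Igfbp5*, *Igfbp7* and *Igfbpl1*), against 6.75% of all genes. Without mutant replicate 1 it was 1 (*Igfbp2*), against 4.08%, and without mutant replicate 2 it was 1 (*Igfbp3*), against 1.09%, and the adjusted count was 0 in each of these fits. Fully separated groups were counted in 6 genes without control replicate 1 (24.8% of all genes), in 1 without mutant replicate 1 (24.3%) and in 1 without mutant replicate 2 (9.54%). The adjusted p of all 10 genes was 1.0 in limma, and over the 16 alternative settings it ranged from 0.364 to 1.0.

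The median log2 difference of the 10 genes was -0.073, beside 0.0057 over all tested genes, and 4 genes had a higher and 6 a lower mean in mutants. Their median absolute difference of 0.15 stood beside 0.054 over all genes. All 10 genes passed the filter on low values and exceeded it in every sample, so that none entered through 1 group alone. The paper reports *Igf1* as lower in mutants, among genes tied to the development of craniofacial bone. That report comes from these same samples, so the value of *Igf1* here is not independent of it. The methods differ, since the paper used Cuffdiff and MISO and judged Cuffdiff transcripts by a nominal p and a fold change. In the limma fit used here *Igf1* had an unadjusted p of 0.127, and its groups overlapped.

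Among the ligands, *Igf1*, which encodes the growth factor of later fetal and postnatal growth, lies at chr10:87858265-87937042 on the plus strand. Its level was 24.5, 34.5 and 30.3 FPKM in control replicates 1 to 3 and 26.0, 25.4 and 24.4 FPKM in mutant replicates 1 to 3. All 3 mutants were close together, and the groups overlapped through control replicate 1, which was as low as the mutants. The log2 difference was -0.22, its 95% interval ran from -0.51 to 0.078, and the exact permutation test gave p = 0.30, where the smallest value that 3 against 3 samples allow is 0.10.

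*Igf2* was measured at 651, 798 and 685 FPKM in controls and 715, 663 and 620 FPKM in mutants. Control replicate 2 was the highest and mutant replicate 3 the lowest sample, and the other 4 lay between 651 and 715 FPKM. The means were 711 ± 76.9 and 666 ± 47.6 FPKM (SD, n = 3 each), with a log2 difference of -0.092 (95% interval -0.37 to 0.19, exact permutation p = 0.50). *Igf2* made up 95.8% to 96.5% of the FPKM of the 2 ligands in every sample, and its ratio to *Igf1* was 24.1 ± 2.18 in controls and 26.4 ± 1.08 in mutants.

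The genomic neighbourhood of *Igf2* holds other transcripts. *Igf2os*, an antisense gene that shares 7124 bp with *Igf2*, was measured at 5.05 to 7.5 FPKM. On the same strand *Gm49394* shares 16048 bp with *Igf2* in the annotation, and the miRNA gene *Mir483* inside *Igf2* was listed at 0 in all samples. The library kit marks strand, but whether counting used it is not given in the sources used here, so that reads of *Igf2* and *Igf2os* cannot be told apart. The same holds for *Igf2r* and the antisense RNA *Airn*, which share 28354 bp and of which *Airn* had 8.14 to 14.4 FPKM.

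*Igf1r*, encoding the signalling receptor for both ligands, lies at chr7:67952827-68233668 on the plus strand. It had 9.25, 16.7 and 15.7 FPKM in controls and 12.7, 14.2 and 15.4 FPKM in mutants. Control replicate 1 lay well below every other sample, and the mutants were inside the control range. The group means were nearly equal, at 13.9 ± 4.04 and 14.1 ± 1.39 FPKM (SD, n = 3 each), with a log2 difference of 0.060 and a 95% interval of -0.43 to 0.55.

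*Igf2r*, the gene of the clearance receptor at chr17:12682406-12769664, had 16.0, 31.7 and 23.6 FPKM in controls and 19.8, 21.4 and 20.1 FPKM in mutants. Control replicate 2 had 1.98 times the level of control replicate 1, the widest control range after *Igfbpl1*, and the 3 mutants again fell between the controls. The log2 difference was -0.16 with a 95% interval of -0.67 to 0.35 (exact permutation p = 0.70).

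*Igfbp3* had the smallest p of the 10 genes. This binding protein, the major IGF carrier of postnatal serum, is encoded at chr11:7206086-7213923 on the minus strand. It was measured at 45.2, 65.9 and 54.4 FPKM in controls and 43.8, 48.8 and 36.5 FPKM in mutants. Only mutant replicate 2 exceeded the lowest control, and each mutant lay below the control with its replicate number. Group means were 55.1 ± 10.4 and 43.0 ± 6.21 FPKM (SD, n = 3 each), 78.1% of control. The log2 difference was -0.34 ± 0.16 (SE; 95% interval -0.72 to 0.034), limma's unadjusted p was 0.0688, rank 250 of 10061 genes, and the exact permutation p was 0.20. With the replicate number as a block the SE was 0.10 and the unadjusted p 0.0165, which raised the count of genes at an unadjusted p under 0.05 from 0 to 1 of 10 and the share of all tested genes from 1.66% to 6.0%. The adjusted p of *Igfbp3* was then 0.804.

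The abundant binding proteins *Igfbp4* and *Igfbp5* differed less. *Igfbp4*, at chr11:99041244-99054392, had 259, 359 and 323 FPKM in controls and 266, 332 and 304 FPKM in mutants. In both groups the first replicate was the lowest and the second the highest, and the log2 difference was -0.054 (95% interval -0.40 to 0.29). *Igfbp5*, a matrix-associated binding protein at chr1:72857932-72874884, had 126, 215 and 172 FPKM in controls and 143, 158 and 140.4 FPKM in mutants. The mutants lay within the control range, and the log2 difference of -0.19 had an interval of -0.62 to 0.25.

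*Igfbp2*, a binding protein prominent in fetal tissues, is encoded 5.457 kb from *Igfbp5* on the opposite strand, at chr1:72824503-72852474. It had 179, 151 and 167 FPKM in controls and 153, 202 and 193 FPKM in mutants. Mutant replicates 2 and 3 were the highest samples and mutant replicate 1 was near the lowest control. The group means were 165 ± 14.2 and 183 ± 26.2 FPKM (SD, n = 3 each), with a log2 difference of 0.13 (95% interval -0.17 to 0.44, exact permutation p = 0.40). *Igfbp2* was the 1 gene of the 10 in which the SD of the mutants on the log2 scale was larger than that of the controls.

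*Igfbp7* encodes a secreted protein that resembles the IGF binding proteins but binds IGFs weakly, and lies at chr5:77349240-77408041. It had 12.3, 8.11 and 8.07 FPKM in controls and 10.2, 10.7 and 9.20 FPKM in mutants. Of all samples control replicate 1 had the most and the other controls the least, with the mutants between them. The log2 difference was 0.094 (95% interval -0.28 to 0.47). At these levels a fold change on the log2(FPKM + 1) scale understates the change in FPKM slightly.

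*Igfbpl1*, a gene related to *Igfbp7* and expressed in the developing forebrain, lies at chr4:45809468-45826923 on the minus strand and varied most. It had 66.4, 31.2 and 40.1 FPKM in controls and 39.9, 66.7 and 52.8 FPKM in mutants. Control replicate 1 and mutant replicate 2 were equally high, control replicate 2 was lowest, and both groups spanned most of the range. The highest sample had 2.14 times the level of the lowest, and the group means were 45.9 ± 18.3 and 53.1 ± 13.4 FPKM (SD, n = 3 each). The log2 difference of 0.25 ± 0.29 (SE) had the widest 95% interval of the 10 genes, -0.44 to 0.93.

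**Figure D2:**
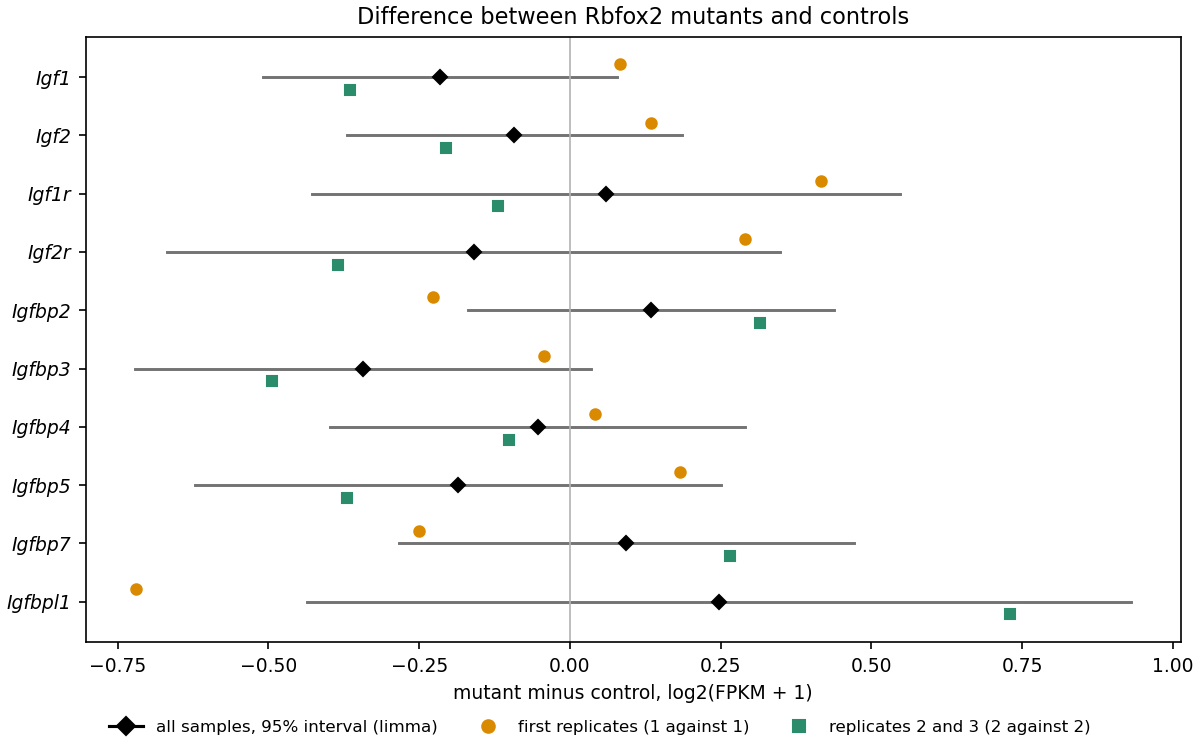
Mutant minus control differences on the log2(FPKM + 1) scale: black diamonds with 95% limma intervals for all 6 samples, orange circles for first replicates alone and green squares for replicates 2 and 3. All 10 intervals cross 0, and circle and square lie on opposite sides of 0 for every gene but *Igfbp3*.

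The spread of the controls was wider than that of the mutants for 9 of the 10 genes, a relation found in 50.3% of all tested genes. The median SD on the log2 scale was 0.29 in controls and 0.12 in mutants for the IGF axis, and 0.124 and 0.120 over all tested genes. All 3 mutants lay inside the control range for 5 genes (*Igf1r*, *Igf2r*, *Igfbp4*, *Igfbp5* and *Igfbp7*), and over all tested genes this was so in 23.6%. Control replicates 1 and 2 were at opposite ends of the controls in 9 of 10 genes, against 48.1% of all tested genes. In 7 genes the top value of all 6 samples was that of control replicate 2 (*Igf1*, *Igf2*, *Igf1r*, *Igf2r*, *Igfbp3*, *Igfbp4* and *Igfbp5*), and in *Igfbp2* and *Igfbpl1* it was the bottom value. The map of deviations shows these genes, with *Igfbp2*, *Igfbp7* and *Igfbpl1* reversed. Other genes of the IGF pathway shared part of this pattern. Of the 30 that were tested, 20 had a larger SD in controls and 14 (46.7%) had all mutants inside the control range. Control replicates 1 and 2 were at opposite ends of the controls in 20 (66.7%). Their median SD on the log2 scale was 0.122 in controls and 0.106 in mutants.

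**Figure D3:**
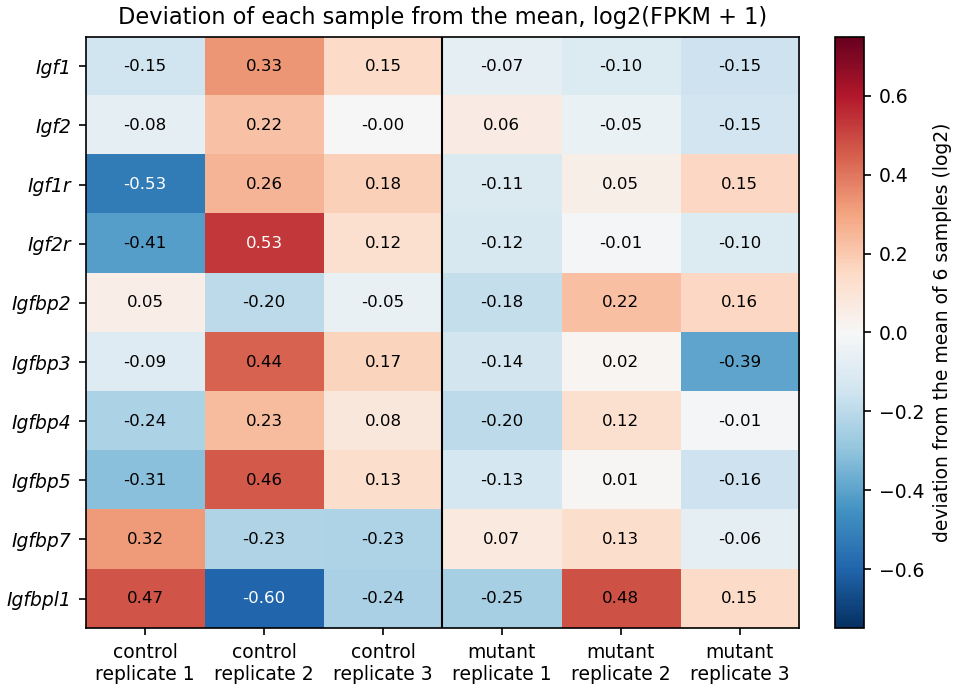
Deviation of each sample from the mean of the 6 samples on the log2(FPKM + 1) scale, genes as rows and samples as columns, red above and blue below the mean. Control replicate 2 is red for 7 genes, up to 0.53 for *Igf2r*, and blue for *Igfbp2*, *Igfbp7* and *Igfbpl1*, down to -0.60.

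Because the first replicates stood apart, the difference was also taken within them and within the other samples. Between the first replicates, with 1 sample in each group and no test, the mutant was higher in 6 genes and lower in 4. The differences were largest for *Igfbpl1* (-0.72 on the log2 scale), *Igf1r* (0.42) and *Igf2r* (0.29), and their median size of 0.20 stood beside 0.081 over all tested genes. In replicates 2 and 3 the mutants were higher in 3 genes, *Igfbp2* (0.32), *Igfbp7* (0.27) and *Igfbpl1* (0.73), and lower in the other 7. Among those 7 the log2 differences were -0.36 for *Igf1*, -0.21 for *Igf2*, -0.12 for *Igf1r*, -0.38 for *Igf2r*, -0.49 for *Igfbp3*, -0.10 for *Igfbp4* and -0.37 for *Igfbp5*. The sign was opposite between the first replicates and the others in 9 of 10 genes, against 55.8% of all tested genes, and *Igfbp3* alone was lower in the mutant in both. The reversal was not particular to these genes: it was seen in 24 (80%) of 30 other tested genes of the IGF pathway. Of those 30, the mutant was higher in 27 and lower in 3 between the first replicates. In replicates 2 and 3 the mutants were higher in 9 of them and lower in 21.

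In replicates 2 and 3 the 2 mutants were separated from the 2 controls for 9 of 10 genes, all but *Igfbp4*, while 45.0% of all tested genes were separated in this way. A limma fit of these 4 samples gave an unadjusted p under 0.05 for 7 genes (*Igf1*, *Igf2r*, *Igfbp2*, *Igfbp3*, *Igfbp5*, *Igfbp7* and *Igfbpl1*), against 11.0% of all genes, and an adjusted p under 0.05 for 0 of the 10. Many of the 10 genes varied together over the samples, so they are not separate observations. Pearson r was 0.989 for *Igf2r* with *Igfbp5* and -0.899 for *Igf1r* with *Igfbp7*, but -0.011 for *Igfbp2* with *Igfbp4*. A term for genotype by first replicate, added after the values were seen, compared both differences directly, with the spread taken from replicates 2 and 3. It rests on 1 first replicate in each group, and it describes the reversal already seen rather than testing it. In this limma fit 7 of 10 genes (*Igf1*, *Igf1r*, *Igf2r*, *Igfbp2*, *Igfbp5*, *Igfbp7* and *Igfbpl1*) had an unadjusted p under 0.05, against 7.0% (704) of all tested genes, and 0 of 10 had an adjusted p under 0.05, as had 0% of all genes. The term was widest for *Igfbpl1*, at -1.45 on the log2 scale (95% interval -2.06 to -0.84), with an adjusted p of 0.535 in limma.

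Summed by role, the groups overlapped for ligands, receptors and binding proteins, and each difference between means was smaller than the SD of the controls. Ligand transcripts summed to 741 ± 81.5 FPKM in controls and 691 ± 48.4 FPKM in mutants (SD, n = 3 each). Receptor transcripts summed to 37.7 ± 11.6 and 34.5 ± 1.79 FPKM, and binding protein transcripts to 761 ± 71.4 and 737 ± 80.7 FPKM. Binding proteins and ligands were thus of similar abundance, and receptor transcripts far rarer. The ratio of binding proteins to ligands was 1.03 ± 0.037 in controls and 1.07 ± 0.16 in mutants, from 0.886 in mutant replicate 1 to 1.19 in mutant replicate 2. *Igfbp4* made up the largest share of binding protein FPKM in every sample, 37.6% to 43.2%. The order of the neighbours *Igfbp2* and *Igfbp5* was not fixed: *Igfbp2* was 1.42, 0.70 and 0.969 times *Igfbp5* in controls and 1.07, 1.28 and 1.37 times in mutants.

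Of 50 other genes of the pathway, 30 passed the filter on low values and 0 of these had an unadjusted p under 0.05 in limma, against 1.66% of all tested genes. Their log2 differences ranged from -0.16 to 0.15 with a median of -0.014, with 13 higher and 17 lower in mutants. Values were fully separated in 2 of 30, against 5.0% of all tested genes. These were *Pik3r3*, encoding a regulatory subunit of PI3K, and *Pdpk1*, encoding the kinase that phosphorylates AKT, which are named here after their values were seen. *Pik3r3* had 39.6, 40.9 and 40.8 FPKM in controls and 42.9, 43.4 and 48.6 FPKM in mutants, a log2 difference of 0.15, and with the replicate number as a block it was the 1 gene of the list with an unadjusted p under 0.05, where 6.0% of all tested genes had one. *Pdpk1* had 13.4, 13.6 and 12.8 FPKM in controls and 14.3, 14.1 and 13.8 FPKM in mutants, a log2 difference of 0.078.

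The insulin receptor gene *Insr*, whose product pairs with the IGF1 receptor in hybrid receptors, was at 8.07 ± 0.825 and 8.15 ± 0.248 FPKM in controls and mutants (SD, n = 3 each). *Grb10*, an imprinted adaptor that restrains growth, was at 304 ± 46.3 and 295 ± 18.2 FPKM. H19, the imprinted noncoding RNA that lies 72.622 kb from *Igf2*, was at 1290.3, 2159 and 1958 FPKM in controls and 1484, 1692 and 1679 FPKM in mutants. Control replicate 1 was again the lowest and control replicate 2 the highest, and the mutants lay between, with a log2 difference of -0.12. The H19 difference was 0.20 between the first replicates and -0.29 in replicates 2 and 3. The genes of the IGF2 mRNA-binding proteins *Igf2bp1*, *Igf2bp2* and *Igf2bp3* had log2 differences of -0.026, -0.036 and 0.074. *Igfbp6*, a binding protein that prefers IGF2, was at 0.264 to 0.720 FPKM and *Pappa*, a protease that cleaves binding proteins, at 1.32 to 2.05 FPKM, both below the filter and not tested, and the insulin genes *Ins1* and *Ins2* were listed at 0 in all samples.

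Markers of other cell types differed between samples along with several of these genes. Forebrain progenitor markers summed to 633, 362 and 536 FPKM in controls and 536, 659 and 521 FPKM in mutants, and choroid plexus markers to 85.1, 13.6 and 16.3 FPKM and 45.0, 93.4 and 43.2 FPKM. Both sums were highest in control replicate 1 and mutant replicate 2, as was *Igfbpl1*, and lowest in control replicate 2, as were *Igfbpl1* and *Igfbp2*. In the other mutants *Igfbp2* did not follow the forebrain sum: it had 153 FPKM in mutant replicate 1 and 193 FPKM in mutant replicate 3, where that sum was 536 and 521 FPKM. *Nes* and *Emx2* were lowest in mutant replicate 1, and the other forebrain markers in control replicate 2. Of the markers, 10 of 10 forebrain and 2 of 6 choroid plexus genes were tested, 0 of them with an unadjusted p under 0.05, and *Kl* of the choroid plexus list was under 1 FPKM in all 6 samples. Ttr, the transthyretin gene that defines the choroid plexus, was at 56.1, 1.04 and 1.91 FPKM in controls and 27.4, 67.6 and 22.9 FPKM in mutants.

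Skeletal muscle markers summed to 160, 422 and 263 FPKM in controls and 153, 235 and 187 FPKM in mutants, with 7 of 8 genes tested. Epithelial markers summed to 135, 245 and 208 FPKM and 137, 194 and 147 FPKM. Both were highest in control replicate 2, as were *Igf1*, *Igf2*, *Igf1r*, *Igf2r*, *Igfbp3*, *Igfbp4* and *Igfbp5*. The sums of cranial mesenchyme, cartilage and bone, and endothelial markers were also highest in that sample. Erythroid markers ran the other way among the controls, with 10560.2, 5214 and 5785 FPKM, and had 10602, 7109 and 11102 FPKM in mutants.

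Of 10 neuronal markers, 3 (*Tubb3*, *Elavl3* and *Dcx*) were higher in mutants at an unadjusted p under 0.05 in limma, as were 71 of all 10061 tested genes. Their sum was 840.3, 794 and 814 FPKM in controls and 905, 999 and 952 FPKM in mutants, so that the groups did not overlap. Of 8 endothelial markers 1, *Egfl7*, was lower in mutants at an unadjusted p under 0.05, and the sum was 142 to 165 FPKM in controls and 141 to 155 FPKM in mutants. Cartilage and bone markers ranged from 193 to 277 FPKM in controls and from 188 to 249 FPKM in mutants. Macrophage markers ranged from 29.7 to 40.6 FPKM over all samples. Otic epithelium markers ranged from 1.25 to 6.90 FPKM in controls and from 9.61 to 28.1 FPKM in mutants. Of these, 1 of 5, *Oc90*, was tested, and it passed the filter on low values through the mutants alone. It had 0.083, 5.04 and 0.063 FPKM in controls and 25.4, 10.2 and 8.38 FPKM in mutants. *Oc90* was higher in mutants at an unadjusted p under 0.05 in limma, a call that is not independent of the filter. The part of these cell types in the values of the IGF axis was not tested.

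**Figure D4:**
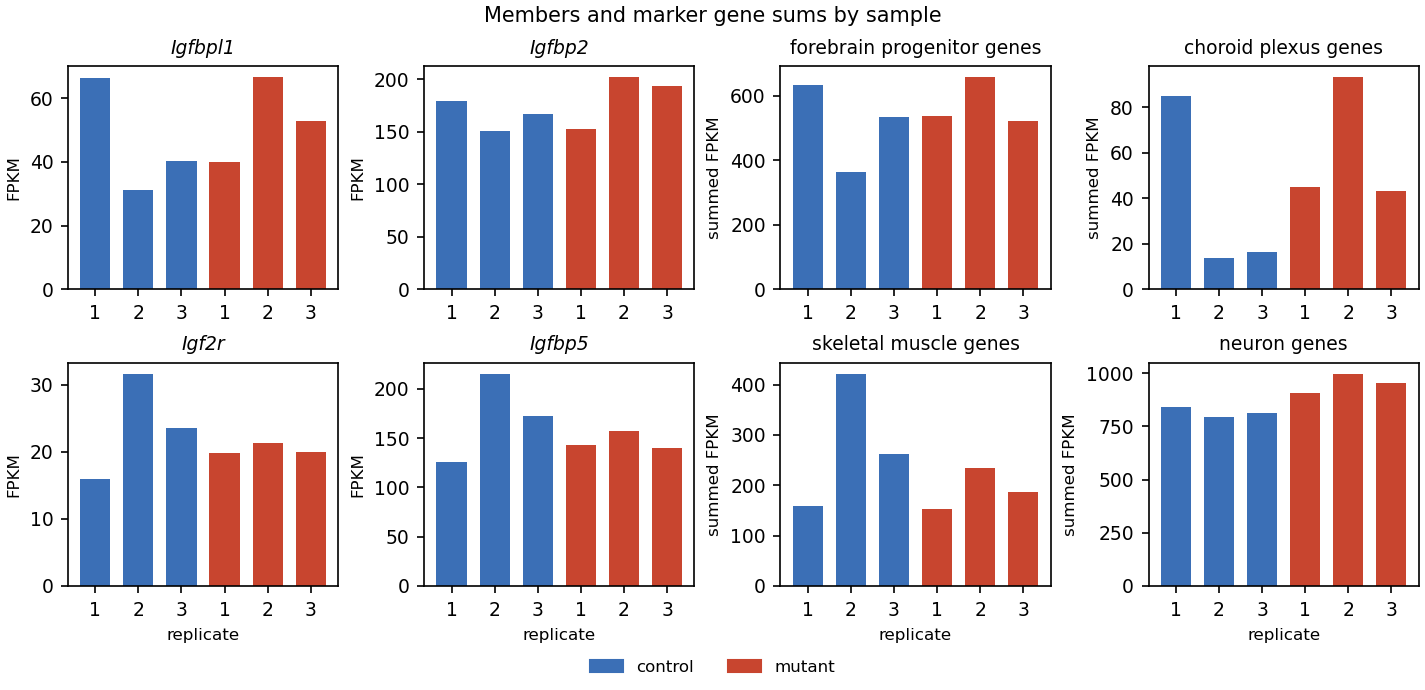
Bars of FPKM for *Igfbpl1*, *Igfbp2*, *Igf2r* and *Igfbp5* and of summed FPKM for 4 marker lists in each sample, controls in blue and mutants in red, each axis starting at 0. *Igfbpl1* and the choroid plexus sum are highest in control replicate 1 and mutant replicate 2, and *Igf2r*, *Igfbp5* and the skeletal muscle sum are highest in control replicate 2.

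Genes with the most similar pattern were listed for 3 of the 10 genes by Pearson correlation of log2(FPKM + 1) over the 6 samples, as a description only. For *Igf1* these were *Clcn5* (r = 0.994), *Smarcd2* (r = 0.990) and *Sh3bp1* (r = 0.989), and 60 tested genes exceeded 0.95. For *Igf2* they were *Ppp1r3b* (r = 0.985), *Wipf1* (r = 0.984) and *Zcchc24* (r = 0.984), with 27 genes above 0.95. For *Igfbpl1* they were *Ppp1r14a* (r = 0.989), *Islr2* (r = 0.986) and *Dnph1* (r = 0.986), with 19 genes above 0.95. *Clcn5*, the closest to *Igf1*, had 16.6, 25.7 and 21.6 FPKM in controls and 18.1, 17.6 and 17.5 FPKM in mutants, again lowest in control replicate 1 and highest in control replicate 2. *Ppp1r14a*, the closest to *Igfbpl1*, had 14.0, 8.79 and 9.58 FPKM in controls and 10.2, 14.6 and 12.2 FPKM in mutants, highest in mutant replicate 2.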

How the data were processed

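Poly(A)+ RNA of 3 control and 3 *Rbfox2* mutant craniofacial tissues (E12.5) was sequenced by the authors from stranded paired-end libraries. Per the submitters' processing notes the tools were FastQC 0.11.4, STAR and Cuffdiff, with the build GRCm38. The STAR and Cuffdiff versions, the annotation release and the strand setting are not given in the sources used here. What the authors deposited are FPKM values by gene, and the single-sample and combined tables did not differ (0 differences over 38553 genes). FPKM removes gene length and sequencing depth, so the read number behind each value is unknown and no counting interval was made. Whole reads could not be recovered: among pairs of replicates 2 and 3, 16.9% to 31.2% of low values fell at 1 ratio, and at most 7.29% in pairs with a first replicate.

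Genes with FPKM over 5 in all controls or all mutants (10061) were fitted on log2(FPKM + 1) in R 4.3.3 (limma 3.58.1, variance trend on intensity), and p-values were adjusted by Benjamini-Hochberg over all of them; single values were compared by exact two-sided permutation tests. The fit was tested on simulated data with independent normal noise of equal SD in every gene. Its simulated effects were larger than the differences of the 10 genes, and the first replicates were not set apart. The simulation thus does not show how the fit behaves on these data. Samples were grouped by their titles. The main tests were unpaired. Deviations of same-numbered samples correlated at 0.64, 0.26 and 0.51, each over 0.1, and values from a blocked fit (by replicate number) stand beside the counts they change. Control 2 with mutant 3 (0.23) and control 3 with mutant 2 (0.40) were about as similar, so the values set the first replicates apart rather than separate pairs 2 and 3, and the labels give no litter or batch. The genes, the pathway and marker lists and the rule for named genes (all 10 genes, listed pathway genes, the 3 most similar genes for *Igf1*, *Igf2* and *Igfbpl1*) were chosen with earlier results of these data known. Of the pathway genes, those at an unadjusted p under 0.05 were to be named, with 8 others always given where tested. Alternatives changed the pseudocount, scaling, filter, variance model, covariates or samples. Positions were taken from GENCODE M21 by gene ID, and 95.0% of all gene IDs matched a table of gene names.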

Additional observations from a re-analysis of the deposited data

How the results depend on the processing

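The count of IGF axis genes with an adjusted p under 0.05 was 0 of 10 in each of the 16 alternatives run. The count at an unadjusted p under 0.05 was 0 with a pseudocount of 0.1, with median-ratio or quantile scaling, with a filter at 1 FPKM or none, and without the intensity trend. It was 1 with the replicate block, 1 with the Y-linked covariate and 1 with a term for the first replicates, in each case *Igfbp3*, and 7 in replicates 2 and 3 only, where the shares of all tested genes were 6.0%, 1.75%, 6.07% and 11.0%. Leaving out single samples gave 0 to 6, with the highest count without control replicate 1. Among the pathway genes tested in each fit the count was 1, 1 and 1 in the same 3 fits, in each case *Pik3r3*. In replicates 2 and 3 only it was 5 (*Htra1*, H19, *Igf2os*, *Grb2* and *Pik3r1*), and these counts stand beside the same shares. With single samples left out it was 0 to 2, and the 2 were *Htra1* and H19 without control replicate 1, against 6.75% of all tested genes. Fully separated groups were counted in 9 genes of the axis in replicates 2 and 3 only, where 2 samples against 2 separate more easily, and in 0 to 6 genes when single samples were left out. The replicate block changed no other call among the named genes.

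The direction of the log2 difference changed for *Igfbp7* with the Y-linked covariate (-0.016) and for *Igf1r* in replicates 2 and 3 only (-0.12). When single samples were left out, it ranged from -0.19 to 0.20 for *Igf1r*, from -0.41 to 0.066 for *Igf2r*, from -0.19 to 0.050 for *Igfbp4* and from -0.00011 to 0.28 for *Igfbp7*. *Igf1r* and *Igf2r* reached their lowest values without control replicate 1 and their highest without control replicate 2. The cause was not tested. The sign was kept in all 16 alternatives for the other 6 genes, but not the size. For *Igfbp3* the difference was -0.34 in the main fit and -0.57 with the Y-linked covariate. Without control replicate 2 the difference was -0.10 for *Igf1*, -0.0064 for *Igf2*, 0.070 for *Igfbp2*, -0.21 for *Igfbp3*, -0.0036 for *Igfbp5* and 0.010 for *Igfbpl1*. The median of all genes lay between -0.0014 and 0.0072 over the scalings and filters. FPKM without read numbers leaves counting error unknown, and 3 samples in each group limit the precision.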
